A study of Homo sapiens with 6 samples.

Results

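The genes described here are the protein-coding zinc finger genes of the long arm of chromosome 19 (19q) whose symbol is ZNF followed by digits. They were taken by position and name alone, as genes of chromosome 19 (GRCh38) with a start beyond the centromere, which gave 164 of the 57657 genes in the tables. RNA was measured in 6 libraries of HEK293 cells, a line derived from human embryonic kidney. The 3 WT libraries came from cells labelled as WT control. The 3 MUL1(-/-) libraries came from HEK293 cells in which MUL1, a mitochondrial E3 ubiquitin ligase, had been inactivated with CRISPR-Cas9. No drug treatment is given for either genotype. Neither the number of clones behind the libraries nor whether the samples came from separate cultures is given in the sources used here, so the p-values measure the spread between these samples, which may be technical.

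Most ZNF genes of this arm encode KRAB zinc finger proteins. In such a protein, a row of C2H2 fingers reads DNA, often within a transposable element, and the KRAB domain recruits TRIM28, which brings in the histone methyltransferase SETDB1 and heterochromatin protein HP1. The genes multiplied by local duplication and lie in clusters.

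The members followed this layout. Translated GENCODE 29 coding sequences held 1 to 29 C2H2 fingers with a median of 12, and 131 of the 164 held the KRAB A box pattern searched for while 33 did not. With a gap of more than 500 kb between neighbouring starts as the limit, the genes fell into 14 runs, and 6 runs of at least 4 genes held 153 of them. The order ran from ZNF536 (chr19:30228290-30713538, plus strand) to ZNF446 (chr19:58474017-58481230, plus strand), with 92 genes on the plus strand and 72 on the minus strand.

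The RefSeq promoters (GRCh38.p14, 250 bases before to 50 after each start) of 143 members were matched by symbol. The letters CCGGAAG stood on either strand in 70 of them, or 49.0%, against 10.7% of 27305 promoters of the table. GGGCGG stood in 60.1% against 44.6%, CCAAT in 39.2% against 35.7%, AAGATGG in 8.39% against 6.06% and the palindromic NRF1 motif in 2.10% against 1.36%. The median number of CG dinucleotides was 23 in the members' promoters and 14 over the table. The promoters of the members with the largest fold changes, ZNF320 and ZNF578, are shown with that of ZNF331, which had the next smallest p after ZNF320. Capitals mark the letters searched for, on either strand.
ZNF320 (chr19:52897645-52897944, minus strand): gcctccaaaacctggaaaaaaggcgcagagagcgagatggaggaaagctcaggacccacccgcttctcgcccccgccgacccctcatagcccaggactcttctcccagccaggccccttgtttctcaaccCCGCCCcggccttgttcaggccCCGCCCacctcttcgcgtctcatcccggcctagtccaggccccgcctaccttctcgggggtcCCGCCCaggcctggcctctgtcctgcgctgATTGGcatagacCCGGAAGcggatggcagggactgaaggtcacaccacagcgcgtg
ZNF578 (chr19:52453303-52453602, plus strand): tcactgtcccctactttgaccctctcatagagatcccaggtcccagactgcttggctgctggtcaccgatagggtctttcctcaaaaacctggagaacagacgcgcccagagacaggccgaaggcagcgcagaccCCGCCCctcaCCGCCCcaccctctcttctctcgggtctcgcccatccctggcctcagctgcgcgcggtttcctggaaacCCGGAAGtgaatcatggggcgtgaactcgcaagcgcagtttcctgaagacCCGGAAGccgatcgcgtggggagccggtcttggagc
ZNF331 (chr19:53520764-53521063, plus strand): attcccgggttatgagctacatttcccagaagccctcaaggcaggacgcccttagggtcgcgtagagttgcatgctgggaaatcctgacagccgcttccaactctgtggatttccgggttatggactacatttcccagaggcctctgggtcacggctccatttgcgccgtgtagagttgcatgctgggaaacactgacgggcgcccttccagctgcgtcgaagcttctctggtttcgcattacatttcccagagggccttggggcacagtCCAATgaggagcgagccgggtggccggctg
In these windows CCGGAAG stood in the promoters of ZNF320 and ZNF578 and not in that of ZNF331, where CCAAT alone was marked. A match is a description of letters and was not tied to binding.

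Counts summed over exon bins came to 132849479 to 149317215 in WT and 127466071 to 128125459 in MUL1(-/-) libraries. MUL1 itself was at 14.6, 14.4 and 18.0 CPM (counts scaled to a common library total) in WT and 17.7, 15.8 and 18.2 CPM in MUL1(-/-) libraries, so its RNA level did not separate the genotypes and gave no check of the labels. Of 6 genes that HEK293 cells are known for, all were detected in every library, and their summed level was 1226 to 1433 CPM in WT and 874 to 1042 CPM in MUL1(-/-), most of it from VIM. Of these 6, PAX2 was lower (log2 fold change -1.80 ± 0.17) and NEFM higher (1.06 ± 0.14) past both thresholds. KRT8 (-0.93 ± 0.07) and VIM (-0.34 ± 0.09) were lower at adjusted p alone, and KRT18 and NEFL did not pass. The summed level of 8 markers of other cell types was 20.3 to 24.4 CPM in WT and 16.1 to 19.4 CPM in MUL1(-/-), of which COL1A1 held 14.2 to 23.5 CPM. COL1A1 was lower at adjusted p alone (log2 fold change -0.39 ± 0.10). PTPRC and PECAM1 were higher at an adjusted p under 0.05 and a log2 fold change above 1 (edgeR), at no more than 0.394 CPM in any library, and CD3E was at or under 3 counts in every library. The part of these differences in the results was not tested.

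The comparison asks how the RNA of these genes differed between cells with and without MUL1. ZNF genes of the arm were higher in MUL1(-/-) than in WT cells far more often than lower. Of 159 members with enough counts to be tested, 14 passed both an adjusted p under 0.05 (edgeR quasi-likelihood test) and a log2 fold change above 1, and 0 passed in the lower direction. At an unadjusted p under 0.05, 6 members were lower, 0 of them by more than 1, and DESeq2 called 14 higher and 0 lower. Without WT replicate 2, 8 were higher past both thresholds, since ZNF180, ZNF229, ZNF418, ZNF432, ZNF468 and ZNF583 then fell under a log2 fold change of 1. Over all 25682 genes tested, 4.17% passed as higher and 3.84% as lower. At adjusted p alone, 105 members were higher and 3 lower, against 18.7% and 18.8% of all genes. The other 51 did not pass. The median log2 fold change was 0.55 over the members and -0.01 over all tested genes.

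Library by library the shift was larger than the spread between replicates. Members took 0.244%, 0.252% and 0.261% of all gene counts in the WT libraries and 0.328%, 0.331% and 0.340% in the MUL1(-/-) libraries, and the genotypes did not overlap. In 111 tested members all MUL1(-/-) libraries lay above all WT libraries, and in 10 all lay below. Over all tested genes these shares were 24.2% and 24.4%. Most of the changes were moderate: 91 of the 105 members that rose had a log2 fold change of at most 1.

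The rise was not spread evenly along the arm. The first 34 genes, from ZNF536 to ZNF573, had a median log2 fold change of -0.02, with 1 higher and 2 lower at adjusted p alone. Scaled to library totals in place of TMM, their median was 0.0475. After a gap of 2.25 Mb between starts, the 125 tested genes from ZNF546 to ZNF446 had a median of 0.62, with 104 higher and 1 lower. All 14 members past both thresholds lay in this distal stretch. The place of the split was chosen after the values were seen, and the difference between the stretches was not tested.

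**Figure D1:**
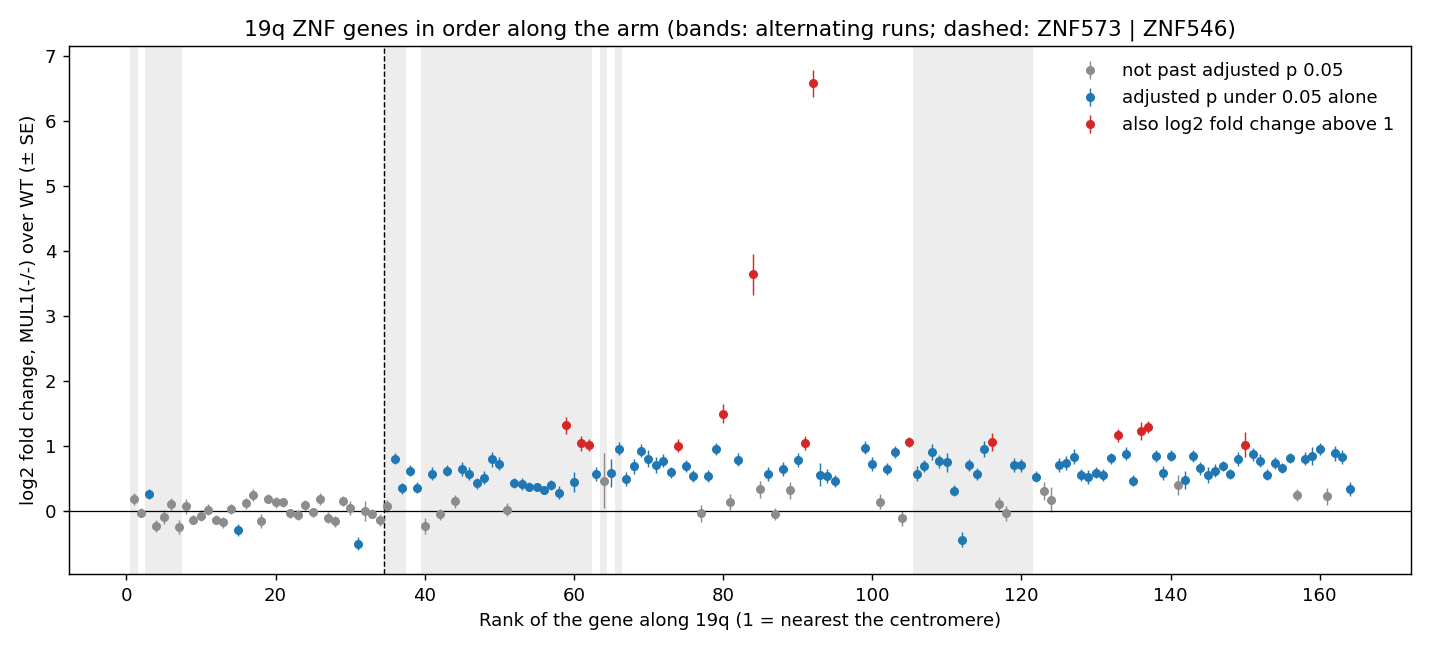
Log2 fold change of MUL1(-/-) over WT with its SE for each of the 159 tested ZNF genes (y axis) by rank along 19q (x axis), with colours for the thresholds passed and a dashed line between ZNF573 and ZNF546. Genes before the line scatter around 0, and 118 of 125 after it lie above 0.

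Run by run, the level of the shift was as follows. The run from ZNF302 to ZNF792 (5 genes) had a median log2 fold change of -0.09, and that from ZNF565 to ZNF573 (27 genes) one of -0.02. In the run from ZNF575 to ZNF180, 19 of 23 genes were higher at adjusted p alone, with a median of 0.42. The next large run, from ZNF175 to ZNF331, held 28 higher among 35 tested genes and a median of 0.69. In the 2 runs nearest the end of the arm, 12 of 15 and 38 of 43 genes were higher, each with a median of 0.70. Other protein-coding genes within the large runs from ZNF575 on were higher in 4 of 10, 2 of 3, 8 of 11 and 6 of 11 tested. Their medians, in the same order along the arm, were 0.20, 0.40, 0.49 and 0.57. Over all tested genes 18.7% were higher at adjusted p alone. In the last run all 43 log2 fold changes were above 0, that of ZNF135 included, which could not be told apart from a gene on the other strand. The 11 genes in runs of fewer than 4 had a median of 0.47, with 7 higher and 0 lower.

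Protein-coding genes of 19q without a zinc finger symbol moved along the arm as well. In the stretch of the first 34 ZNF genes, 87 tested neighbours had a median log2 fold change of 0.02, with 19 higher and 19 lower at adjusted p alone. The 48 tested neighbours in the gap had a median of 0.20. In the distal stretch, 347 tested neighbours had a median of 0.41, with 207 higher (59.7%) and 20 lower, beside 83.2% higher among the ZNF genes there. With the neighbours' median of the same stretch subtracted, the members' median was 0.15 and the members above 1 were 3, namely ZNF320, ZNF578 and ZNF610. The neighbours' part in the members' shift was not tested.

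**Figure D2:**
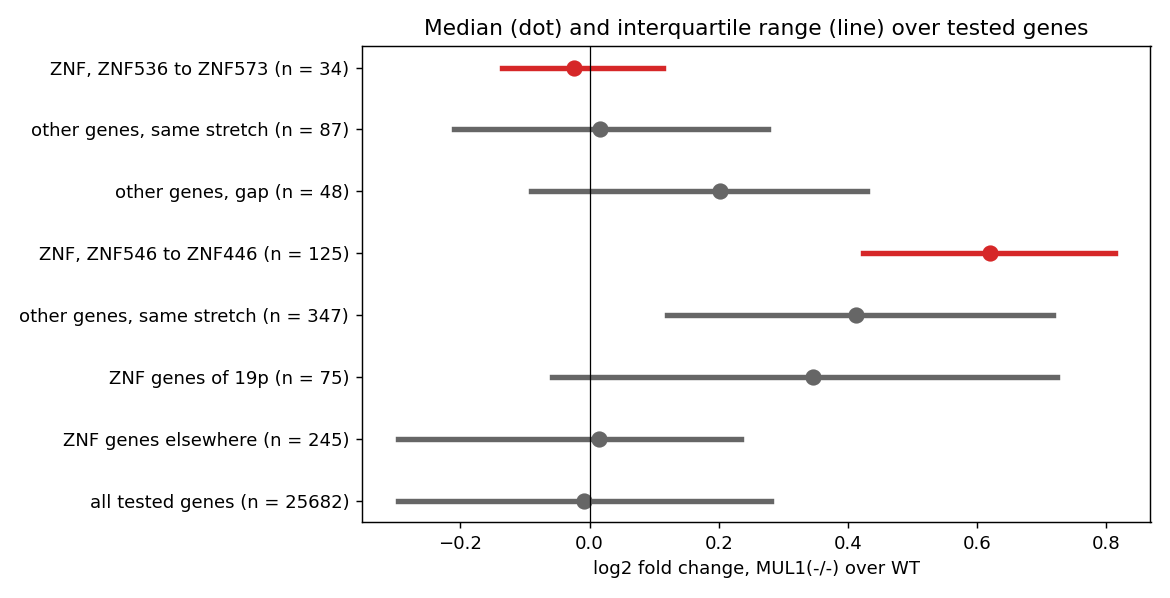
Median (dot) and interquartile range (line) of the log2 fold change of MUL1(-/-) over WT (x axis) for groups of tested genes (y axis). The ZNF genes from ZNF546 to ZNF446 have a median of 0.62 and their neighbours one of 0.41, while both groups of the first stretch and all tested genes lie near 0.

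ZNF genes elsewhere in the genome gave other values. Of 75 tested on the short arm of chromosome 19, 38 were higher and 11 lower at adjusted p alone, with a median log2 fold change of 0.35. Of 245 tested on other chromosomes, 53 were higher and 63 lower, with a median of 0.01. These are descriptions from the same fit, and the differences between the groups were not tested.

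The largest change was that of ZNF320 (ENSG00000182986, chr19:52863790-52897693, minus strand), a KRAB zinc finger gene with 11 fingers. ZNF320 was at 0.0746, 0.0604 and 0.151 CPM in the WT libraries and at 8.45, 9.38 and 9.29 CPM in the MUL1(-/-) libraries. Every MUL1(-/-) library lay far above every WT library, where 9 to 20 counts were found (log2 fold change 6.57 ± 0.21 (SE), adjusted p = 1.41e-11). ZNF320 would not have passed the low-count filter on its WT libraries alone, so its test is not independent of its rise. Of its 45 bins, 32 held 0 counts in WT, and 35 held at least 20 counts over the 6 libraries. Those 35 passed that limit mainly through the MUL1(-/-) libraries, so their direction adds no separate support. Only 24.3% of the counts of ZNF320 lay in bins that no other gene model touches, and over those bins alone the log2 fold change was 8.09.

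ZNF578 (ENSG00000258405, chr19:52453576-52512154, plus strand), a KRAB gene of the same run, was also near the limit of detection in WT. ZNF578 was at 0.0373, 0.0403 and 0.0377 CPM in the WT libraries and at 0.517, 0.462 and 0.490 CPM in the MUL1(-/-) libraries. The WT values rest on 5 or 6 counts each, and the groups did not overlap (log2 fold change 3.64 ± 0.32 (SE), adjusted p = 6.82e-07). ZNF578 would not have passed the low-count filter on its WT libraries alone, so its test is not independent of its rise. ZNF610, between ZNF432 and ZNF578 on the arm, followed with a smaller change. ZNF610 was at 0.926, 1.07 and 0.821 CPM in the WT libraries and at 2.51, 2.86 and 2.59 CPM in the MUL1(-/-) libraries, again without overlap (log2 fold change 1.50 ± 0.15 (SE), adjusted p = 2.35e-06). By a test against a log2 fold change of 1 (glmTreat), 4 members passed, namely these 3 genes and ZNF530.

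The same run held 3 further genes past both thresholds. ZNF331, a KRAB gene with 12 fingers, had by far the highest CPM of the 14, a value not scaled to length. ZNF331 was at 31.1, 30.5 and 34.6 CPM in the WT libraries and at 67.2, 66.3 and 67.4 CPM in the MUL1(-/-) libraries, and the MUL1(-/-) libraries agreed closely with each other and lay above all WT libraries (log2 fold change 1.06 ± 0.07 (SE), adjusted p = 6.51e-08). ZNF468 (log2 fold change 1.04 ± 0.11 (SE), adjusted p = 3.47e-06) and ZNF432 (log2 fold change 1.00 ± 0.10 (SE), adjusted p = 1.72e-06) changed by similar factors, the latter just past the threshold.

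In the run from ZNF575 to ZNF180, the genes past both thresholds stood at its distal end. ZNF112 was at 2.51, 3.33 and 3.64 CPM in the WT libraries and at 7.79, 7.48 and 8.34 CPM in the MUL1(-/-) libraries. The groups did not overlap (log2 fold change 1.32 ± 0.13 (SE), adjusted p = 2.92e-06). ZNF229, whose change was smaller, lies between it and ZNF180 (log2 fold change 1.04 ± 0.12 (SE), adjusted p = 1.03e-05). ZNF180 was at 9.41, 8.36 and 10.6 CPM in the WT libraries and at 19.4, 18.5 and 19.5 CPM in the MUL1(-/-) libraries (log2 fold change 1.02 ± 0.10 (SE), adjusted p = 1.85e-06). ZNF180 was the 1 gene of the 14 in which the KRAB pattern was not found.

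Toward the end of the arm, ZNF530 had the smallest p of the last run. ZNF530 was at 6.56, 5.97 and 7.09 CPM in the WT libraries and at 15.7, 15.9 and 16.2 CPM in the MUL1(-/-) libraries, with no overlap (log2 fold change 1.29 ± 0.09 (SE), adjusted p = 1.29e-07). ZNF773 was at 5, 4.37 and 4.92 CPM in the WT libraries and at 11.2, 10.4 and 10.4 CPM in the MUL1(-/-) libraries (log2 fold change 1.16 ± 0.10 (SE), adjusted p = 6.98e-07). ZNF416 (log2 fold change 1.23 ± 0.14 (SE), adjusted p = 6.53e-06) and ZNF418 (log2 fold change 1.02 ± 0.19 (SE), adjusted p = 0.000706) lay in the same run, and ZNF583 (log2 fold change 1.06 ± 0.13 (SE), adjusted p = 2.47e-05) was the 1 gene past both thresholds in the run before it.

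**Figure D3:**
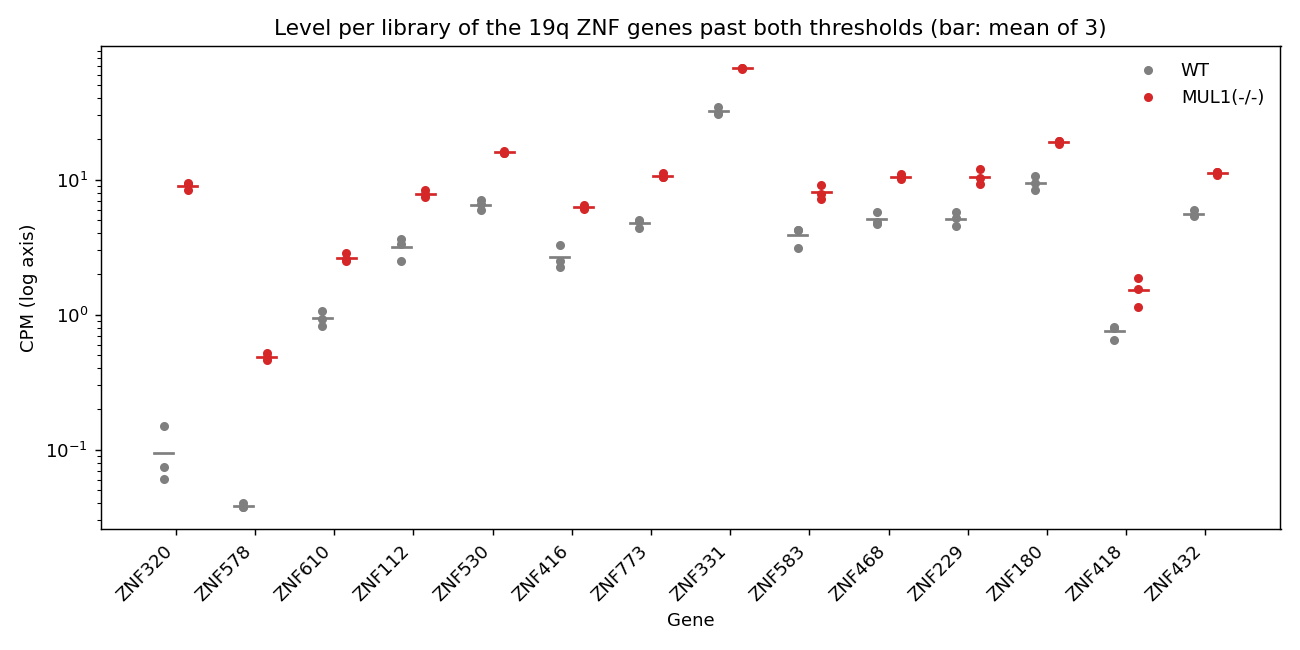
Level in CPM (log y axis) in each WT and MUL1(-/-) library for the 14 ZNF genes past both thresholds (x axis), with the mean of 3 as a bar. In none do the genotypes overlap, and ZNF320 and ZNF578 start from WT means of 0.0952 and 0.0384 CPM.

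The 3 members that were lower at adjusted p alone changed less. ZNF571 was at 16.1, 15.5 and 13.0 CPM in the WT libraries and at 10.2, 11.1 and 10.1 CPM in the MUL1(-/-) libraries. All MUL1(-/-) libraries lay below all WT libraries (log2 fold change -0.50 ± 0.10 (SE), adjusted p = 0.001), and 63.7% of its counts lay in bins of its own. ZNF567, in the same run, had a log2 fold change of -0.29 (adjusted p = 0.0143, edgeR). ZNF581 was at 26.0, 24.5 and 18.1 CPM in the WT libraries and at 18.3, 16.0 and 16.2 CPM in the MUL1(-/-) libraries, so the genotypes overlapped (log2 fold change -0.44 ± 0.12 (SE), adjusted p = 0.00782). ZNF581 was the 1 member of the distal stretch that was lower, but 13 of its 17 bins with at least 20 counts had a higher mean in MUL1(-/-), 9 of them without overlap, and 2 had all MUL1(-/-) libraries below. Its call was lost without WT replicate 1 (adjusted p = 0.0564, edgeR), and that of ZNF567 without MUL1(-/-) replicate 1 (adjusted p = 0.0901). With the most counted bin ZNF571 had an adjusted p of 0.0518. ZNF567 and ZNF581 are named here after their values were seen.

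Levels are compared between genes per kb of exon bins. The tested members ranged from 0.0367 to 45.9 CPM per kb over the 6 libraries, with a median of 2.24. ZNF146, a gene of fingers without a KRAB domain, was the highest, with 48.0 CPM per kb in WT and 43.7 in MUL1(-/-). ZNF428 (35.8 and 34.6), ZNF227 (17.8 and 22.3), ZNF302 (14.5 and 17.4) and ZNF875 (14.0 and 13.8) followed. Of these 5, ZNF227 (log2 fold change 0.32 ± 0.06 (SE), adjusted p = 0.00106) and ZNF302 (log2 fold change 0.26 ± 0.08 (SE), adjusted p = 0.0202) were higher in MUL1(-/-) at adjusted p alone. ZNF302 lost its call without WT replicate 1 or 2 or MUL1(-/-) replicate 2 or 3 (adjusted p = 0.0531 to 0.0973, edgeR). The other 3 did not pass, with log2 fold changes from -0.13 to -0.02.

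**Figure D4:**
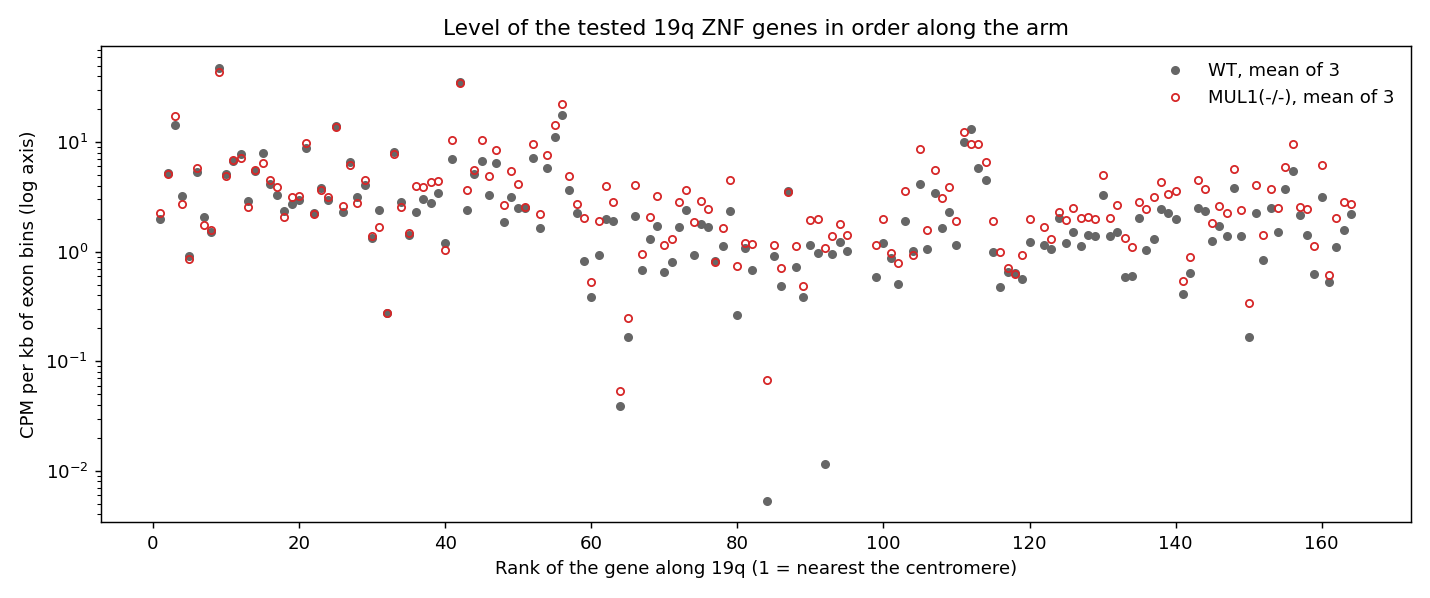
Mean level of each tested ZNF gene in CPM per kb (log y axis) in WT (filled) and MUL1(-/-) libraries (open) by rank along 19q (x axis). ZNF146 is the highest in both genotypes, and the lowest WT values belong to ZNF578 and ZNF320.

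Close paralogs can share reads, which makes the values of each uncertain. ZNF587 and ZNF417, with 98.1% identical aligned residues, had log2 fold changes of 0.57 and 0.80. ZNF585A and ZNF585B, with 94.5%, lie in the first stretch and had -0.04 and -0.06. ZNF264 and ZNF805 (85.5%) had 0.53 and 0.30, ZNF324B and ZNF324 (85.0%) had 0.88 and 0.83, and ZNF611 and ZNF600 (79.6%) had 0.64 and 0.31. In each pair both members lie in the same run.

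At the ends of the arm, ZNF536 did not pass (log2 fold change 0.18 ± 0.09, adjusted p = 0.145, edgeR), while ZNF446 was higher at adjusted p alone (log2 fold change 0.33 ± 0.11 (SE), adjusted p = 0.0242). ZNF446 lost its call without WT replicate 1 or 2 or MUL1(-/-) replicate 1 (adjusted p = 0.0690 to 0.126, edgeR), and ZNF536 gained one without MUL1(-/-) replicate 3 (adjusted p = 0.0233). ZNF600 likewise passed without that library (adjusted p = 0.0489). Of the members that could not be tested, ZNF534, ZNF415, ZNF347, ZNF665 and ZNF835 had 0 to 16 counts per library. The value of ZNF135 could not be told apart from that of ZSCAN18 on the other strand, since 99.9% of its counts lay in 1 bin (chr19:58084220-58086310) that overlaps exons of both. Its other 18 bins together held 2 to 4 counts per library. In 12 members, ZNF135 and ZNF320 included, fewer than 50% of the counts lay in bins that no other gene touches.

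In the distal stretch, itself chosen after the values were seen, 83.2% of tested members were higher at adjusted p alone. Most ways of dividing them therefore give a shift on both sides. The values below are descriptions and cannot tell whether the shift depends on a feature. The KRAB pattern was searched in a chosen coding sequence of each gene, so genes without it may still encode a KRAB domain. Of 101 tested genes with the KRAB pattern, 86 were higher at adjusted p alone, with a median log2 fold change of 0.64, and of 24 without it 18 were higher, with a median of 0.57. Genes with more fingers than the stretch's median of 12.5 had a median log2 fold change of 0.57, and the others one of 0.69. Genes on the plus strand had a median of 0.58 and those on the minus strand one of 0.69. With CCGGAAG in the promoter the median was 0.69 (58 genes), and without it 0.57 (50 genes). In the first stretch, 10 tested genes with these letters had a median of -0.05.

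Of 30 genes listed for silencing by KRAB proteins, 0 passed both thresholds in edgeR and 0 in DESeq2. At an unadjusted p under 0.05 (edgeR), 18 passed, 1 of them with a change of more than 1. That gene was ZFP57 (1.31 ± 0.51), itself a zinc finger gene, at no more than 0.222 CPM in any library. At adjusted p alone 7 of the 30 were higher (23.3%) and 6 lower, near the 18.7% and 18.8% of all tested genes. The median log2 fold change of the 30 was -0.06. TRIM28, the corepressor that KRAB domains bind, was higher (log2 fold change 0.41 ± 0.07, SE), while SETDB1, which methylates histone H3 (-0.24 ± 0.08), and CBX5, an HP1 protein (-0.30 ± 0.07), were lower. Among DNA methylation genes of the list, DNMT1 (0.41 ± 0.06) was higher and DNMT3B (-0.67 ± 0.07) lower. The others higher at adjusted p alone were CHD3 (0.88 ± 0.07), RBBP7 (0.66 ± 0.10), ATF7IP2, MPHOSPH8 and UHRF1. The others lower were HELLS (-0.44 ± 0.07), RBBP4 (-0.34 ± 0.06) and CDCA7 (-0.25 ± 0.08). TRIM28 itself lies on 19q in the distal stretch, where the neighbours had a median log2 fold change of 0.41. DNMT1 and UHRF1 lie on the short arm of chromosome 19. The part of position in these values was not tested.

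Zinc finger genes of 19q with other names were described in the same way. Of 16, 10 were tested, and 2 passed both thresholds as higher. ZIK1, a KRAB zinc finger gene, was at 8.14, 8.08 and 10.6 CPM in WT and 24.9, 24.6 and 25.3 CPM in MUL1(-/-) libraries. ZSCAN5B, with a SCAN domain, was at 0.00746 to 0.0269 CPM in WT and 0.0758 to 0.122 CPM in MUL1(-/-) libraries. In WT replicates 1 and 3 ZSCAN5B lay under 3 counts, a level not told from 0, so its fold change is uncertain. The genotypes did not overlap in either gene, but ZSCAN5B would not have passed the low-count filter on its WT libraries alone. In the distal stretch, 5 of 6 tested were higher at adjusted p alone and 0 lower, with ZIK1 and ZSCAN5B among the 5. In the first stretch, ZFP14 (-0.60) and ZFP30 (-0.20) of 3 tested were lower at adjusted p alone. Over all tested genes, 18.7% were higher and 18.8% lower.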

How the data were processed

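The 6 libraries (SMARTER mRNA-Seq kit) were trimmed and aligned by the authors, whose processing notes name Trimmomatic 0.36, STAR 2.5.2b and GRCh38. The counting program is not given in the sources used here, nor is the use of strand. The authors deposited raw counts per exon bin, without normalization. Bins were summed per gene, and bins of joined identifiers were given to genes by GENCODE 29 exons. How a read that touches several bins was counted is not given either. If it counts in each, sums exceed reads, and the counts given here stand for fewer reads. Levels at 3 counts or fewer (0.0201 to 0.0230 CPM) were treated as not told from 0, a limit for counting error only.

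Genes of the whole table were fitted with edgeR 4.0.16 in R 4.3.3 (TMM, filterByExpr, quasi-likelihood test, Benjamini-Hochberg), WT against MUL1(-/-), with CPM on TMM-scaled totals. Adjusted p-values are from this fit unless an alternative or a library left out is named beside them. The fits were tested on simulated data with changes larger than those of most members, so that test does not bear on moderate shifts. Alternatives used DESeq2 1.42.0 and limma 3.58.1. Tables and figures used Python 3.11.15, pandas 2.3.3 and matplotlib 3.10.9. Replicates differed beyond sampling noise (chi-square per degree of freedom 3.33 to 11.0) and were not merged.

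Members and lists were chosen with earlier results of these data known. Named members were, per direction, the 10 with the smallest p past both thresholds, the 5 highest per kb, any at the floor in 1 genotype alone, the smallest p of each run of at least 4, the 5 most identical pairs and the ends of the arm. ZNF416, ZNF229, ZNF583 and ZNF418 were added to complete the 14, ZNF135 and the untested members as limits, and the named cofactors and ZFP genes after their values were seen. Of the cell type markers, 1 is not reported here.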

Additional observations from a re-analysis of the deposited data

How the results depend on the processing

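Fits with DESeq2, limma voom, RLE factors, library totals, other low-count filters, the most counted bin, unshared bins and joined identifiers kept whole gave 0 members lower past both thresholds, as did leaving out each library. Members higher past both thresholds were 8 to 16 when 1 library was left out, the 8 without WT replicate 2. They were 19 with library totals, 17 without a low-count filter, 17 with unshared bins only, 7 with joined identifiers kept whole (which leaves fewer members), 4 under glmTreat and 3 less the median of the 19q neighbours, a setting chosen after seeing the data. Members higher at adjusted p alone were 100 to 107 with a library left out and 67 with joined identifiers kept whole. The median log2 fold change of all members was 0.62 with library totals, 0.58 without a low-count filter, 0.49 with joined identifiers kept whole and 0.15 less the neighbours' median. For the first 34 genes it was 0.0475 with library totals, 0.00557 without a filter, 0.0317 with the most counted bin and -0.0314 to 0.0194 with a library left out. From ZNF546 on it was 0.69 with library totals, 0.66 without a filter, 0.65 with at least 1 CPM in 3 libraries and 0.59 to 0.66 with a library left out. Where no cause is named, the cause was not tested. Of 527 values of named genes under alternatives, 482 kept their direction and their side of both thresholds. Among members past both thresholds, 17 values kept their adjusted p under 0.05 and fell under a log2 fold change of 1. These were values of ZNF180, ZNF229, ZNF418, ZNF432, ZNF468, ZNF530 and ZNF583. In 12 values of 5 genes (ZNF302, ZNF446, ZNF567, ZNF571 and ZNF581) the adjusted p rose above 0.05, and in 5 values (ZNF536, ZNF600 and ZNF805) it fell below. The sign turned in 11 values of 5 genes, none past adjusted p in either fit. With library totals, ZNF428 was at 0.0231, ZNF585A at 0.0315, ZNF585B at 0.0140 and ZNF875 at 0.0487. With the most counted bin, ZNF585A was at 0.0549, ZNF585B at 0.0932, ZNF600 at -0.0271 and ZNF875 at 0.0553. ZNF875 was at 0.00688 without a low-count filter. With a library left out, ZNF875 ranged from -0.0426 to 0.0224 and ZNF428 from -0.129 to 0.0341, both above 0 without MUL1(-/-) replicate 2. Runs numbered 16 with gaps of 250 kb and 11 with gaps of 1 Mb.

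Same-numbered libraries had correlated deviations of -0.11, 0.17 and 0.10 over 16167 genes, so the numbers were not taken to pair the samples. With the replicate block, 13 members were higher past both thresholds, and at adjusted p alone 107 were higher and 4 lower. Depth limits ZNF578, ZNF320 and ZSCAN5B in WT and the 5 untested members. With 3 libraries per genotype, outlying libraries within a genotype were not tested.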
